A study of Homo sapiens with 10 samples.

Results

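The 10 genes described here, CDH1, CDH2, CDH3, CDH4, CDH6, CDH7, CDH8, CDH10, CDH11 and CDH12, encode classical cadherins and were taken by symbol from the 55841 gene identifiers of the count table. The RNA came from HES9, as the labels call this line of human embryonic stem cells, grown on matrigel in mTESR1, a defined medium used without feeder cells. A general, nonsorted population was compared with HHH, the cells sorted for the highest levels of EPCAM, GCTM2 and CD9. Of the RNA for these antigens, EPCAM was higher in HHH (log2 fold change 0.41, SE 0.081, adjusted p = 0.00645 in edgeR's quasi-likelihood test). It had 0.35 in batch 1 (adjusted p = 0.164) and 0.46 in batch 2 (adjusted p = 0.0115). CD9 did not pass over both batches (0.29, SE 0.12, adjusted p = 0.195). It stood at -0.098 in batch 1 (adjusted p = 0.764) and 0.55 in batch 2 (adjusted p = 0.00851). The difference between these 2 values did not pass the interaction of batch and population (adjusted p = 0.105). Each population had 5 libraries, 2 in batch 1 and 3 in batch 2. The general population was not depleted of HHH cells, so each difference is between a fraction and the culture that contains it. Only HHH was sorted, so effects of the sorting itself cannot be told apart from differences between the cells. All libraries came from 1 cell line, and the labels do not say whether they were separate cultures, so the p-values measure the spread between these samples, which may be technical.

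Classical cadherins are transmembrane proteins that hold neighbouring cells together by calcium-dependent binding of like molecules, and their cytoplasmic tails bind catenins that link the junction to actin. The type I members are E-cadherin (CDH1), N-cadherin (CDH2), P-cadherin (CDH3) and R-cadherin (CDH4), and the others listed here are type II members, many of which are known from the developing nervous system. Human embryonic stem cells grow as epithelial colonies held together by E-cadherin, and exchange of E-cadherin for N-cadherin is a familiar feature of cells that leave an epithelium.

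In HHH, 5 of the 9 cadherins that could be tested were lower than in the general population and 0 were higher. CDH6 fell the most, 8.01-fold, followed by CDH10 (4.43-fold), CDH8 (1.86-fold), CDH7 (1.81-fold) and CDH1 (1.33-fold). CDH10 was kept for testing through its general libraries, as its HHH counts were 10 or fewer. Its place among the 9 and its call are therefore not independent of the filter on low counts. The N-, P- and R-cadherin genes and CDH11 did not pass the test, and CDH12 was too low to be tested. At an unadjusted p under 0.05 edgeR still counted 0 members higher, and DESeq2 and limma with voom called 0. The call was an adjusted p under 0.05 in edgeR's quasi-likelihood test with batch as a term, which was met in the lower direction by 3.89% and in the higher direction by 1.94% of all 23552 genes tested. A fold change over 1.5 was reached by 4 of the 5, all of type II, against 2.34% of all genes lower by that much. The median log2 fold change was -0.41 over the 9 members and 0.016 over all genes. In 5 members every HHH library lay below every general library of its batch, which was so for 5.43% of all genes.

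**Figure D1:**
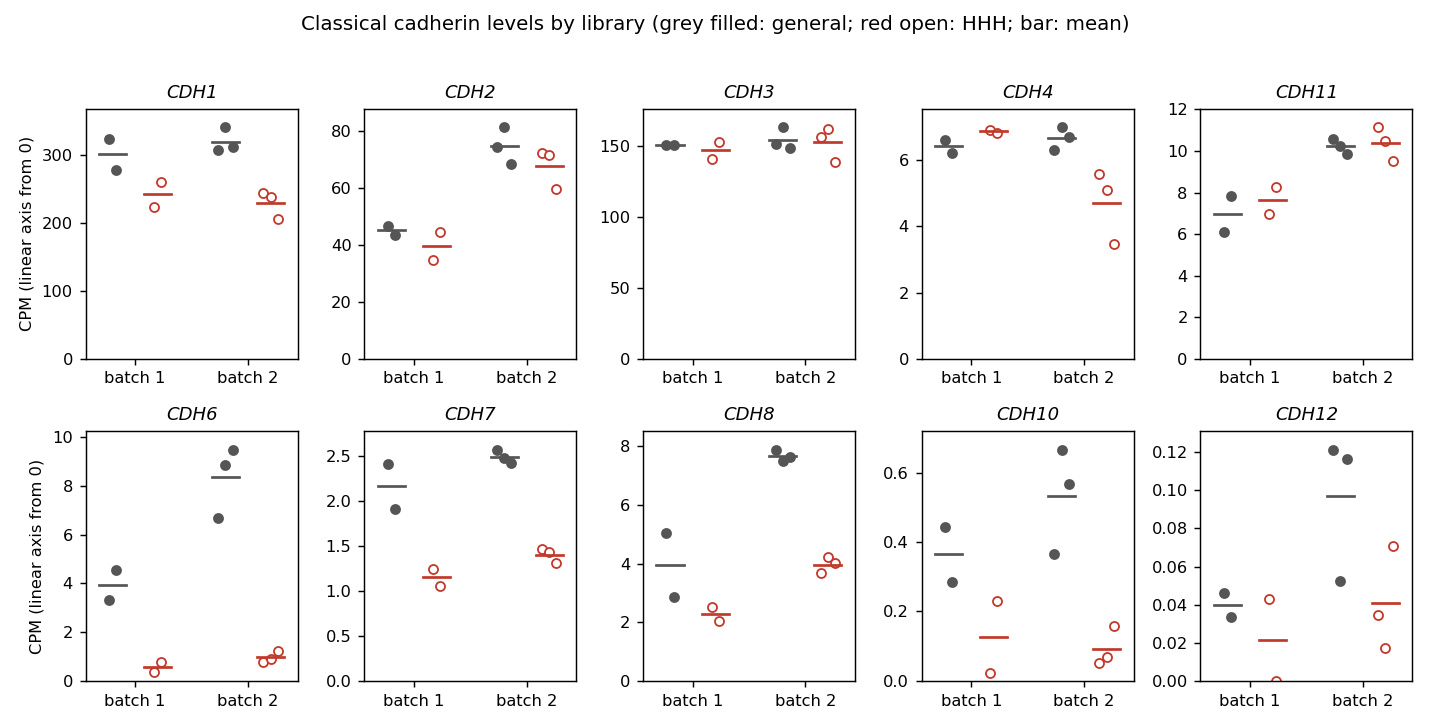
CPM on TMM-scaled library sizes (linear axes from 0) of each of the 10 cadherins in each of the 10 libraries, by batch, with bars at the means. HHH points lie below all general points of their batch in CDH1, CDH6, CDH7, CDH8 and CDH10, and the points mix in CDH3 and CDH11.

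CDH1, on chromosome 16 (68737292 to 68835537 in GRCh38, plus strand), was the most abundant member. Its level was 324 and 278 CPM (the usual counts-per-million scale, on TMM-adjusted library sizes) in the general libraries of batch 1 and 307, 341 and 312 CPM in those of batch 2. In HHH it was 224 and 261 CPM in batch 1 and 244, 238 and 206 CPM in batch 2. Every HHH library thus fell short of every general library, also across batches. The difference was -0.41 on the log2 scale (SE 0.083, adjusted p = 0.00759), with -0.31 in batch 1 and -0.48 in batch 2. Without the batch term the adjusted p was 0.0821 at the same size, and batch 1 alone gave 0.372.

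The gene for P-cadherin, CDH3, lies next to CDH1 on the same chromosome (68636189 to 68727468) and did not follow it. It ran from 149 to 163 CPM in the general libraries, with a median of 151, and from 139 to 163 CPM in HHH, with a median of 153. The ranges coincided, and the log2 fold change was -0.025 (SE 0.069, adjusted p = 0.874), with a 95% interval of -0.17 to 0.12. A fall of the size seen in CDH1 lies outside that interval. Of the exonic bases of CDH3 8.40% are shared with an antisense gene, and of those of CDH1 5.71% with another annotated gene, whose reads could not be told from theirs without strand.

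N-cadherin (CDH2), an adhesion molecule of neural and mesenchymal cells, was set apart by batch more than by population. The general libraries held 46.7 and 43.3 CPM in batch 1 and 74.1, 81.1 and 68.2 CPM in batch 2, and the HHH libraries 34.7 and 44.5 CPM in batch 1 and 72.1, 71.6 and 59.5 CPM in batch 2. All 5 HHH libraries were under the general mean of their batch, but the groups overlapped. The fold change was -0.16 (log2, SE 0.086, adjusted p = 0.322, 95% interval -0.34 to 0.028).

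R-cadherin (CDH4), first known from the retina, differed in direction between the batches. In batch 1 it was 6.62 and 6.23 CPM in general and 6.92 and 6.84 CPM in HHH. In batch 2 it was 6.31, 7.0 and 6.70 CPM in general and 5.59, 5.10 and 3.46 CPM in HHH. Both HHH libraries of batch 1 were therefore above, and the 3 of batch 2 below, all general libraries of their batch. The log2 fold changes were 0.099 (SE 0.18) and -0.50 (SE 0.15), and the difference between them did not pass the interaction test (adjusted p = 0.202). With batch 2 fitted alone CDH4 passed as lower (-0.51, adjusted p = 0.0466). Over both batches the value was -0.26 (SE 0.14, adjusted p = 0.316, 95% interval -0.56 to 0.043), and it was -0.13 (adjusted p = 0.556) without HHH batch 2 replicate 3.

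CDH6, a type II cadherin known from the kidney, the neural plate border and migrating neural crest, showed the widest gap. Its level in the general population was 3.32 and 4.54 CPM in batch 1 and 6.70, 8.86 and 9.49 CPM in batch 2. In HHH it was 0.364 and 0.778 CPM in batch 1 and 0.772, 0.916 and 1.22 CPM in batch 2. The highest HHH library lay under the lowest general library of either batch. The log2 fold change was -3.00 (SE 0.19, adjusted p = 6.16e-07), with -2.79 (SE 0.32) in batch 1 and -3.11 (SE 0.23) in batch 2, and it passed in each batch. Of its exonic bases 9.92% are shared with other annotated genes, and whether the counting used strand is not given in the sources used here. In these bulk libraries fewer cells with CDH6 RNA and less RNA per cell cannot be told apart, and the same holds for each gene below.

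CDH7 and CDH8 encode type II cadherins of neural tissue and fell by similar amounts. CDH7 was 2.40 and 1.91 CPM in the general libraries of batch 1 and 2.57, 2.47 and 2.42 CPM in those of batch 2, against 1.24 and 1.05 CPM in HHH of batch 1 and 1.46, 1.43 and 1.31 CPM in HHH of batch 2. No HHH library reached the lowest general library. The log2 fold change was -0.86 (SE 0.13, adjusted p = 8.35e-04), with -0.91 and -0.83 in the 2 batches. With batch 1 fitted alone its adjusted p was 0.211.

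CDH8 was 5.05 and 2.87 CPM in general and 2.53 and 2.04 CPM in HHH of batch 1. In batch 2 it was 7.89, 7.49 and 7.65 CPM in general and 3.67, 4.22 and 4.01 CPM in HHH. Within each batch the populations were apart, while HHH of batch 2 overlapped general of batch 1. The log2 fold change was -0.89 (SE 0.14, adjusted p = 0.00126). Without the batch term its adjusted p was 0.267, and in batch 1 alone 0.311.

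CDH10, a type II cadherin of the brain, was near the limit of counting. It passed the filter on low counts through its general libraries. At its HHH level in both populations it would have been left out, as CDH12 was. It had 29 and 17 counts in the general libraries of batch 1 and 21, 38 and 34 counts in those of batch 2, and 1 and 10 counts in HHH of batch 1 and 3, 4 and 9 counts in HHH of batch 2. In CPM this was 0.285 to 0.666 in general and 0.0214 to 0.229 in HHH, where 3 counts, taken as the floor, stood for 0.0459 to 0.0686 CPM. The 2 populations did not overlap. The log2 fold change was -2.15 (SE 0.42, adjusted p = 0.00660), and its 95% interval of -3.05 to -1.25 was the widest of the 9. By batch it was -1.57 (SE 0.66, adjusted p = 0.246) in batch 1 and -2.49 (SE 0.52, adjusted p = 0.00894) in batch 2. With batch 1 fitted alone the adjusted p was 0.428. A filter of at least 1 CPM in at least 5 libraries removed the gene, and without the batch term its adjusted p was 0.0689.

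CDH11, the cadherin of osteoblasts and other mesenchymal cells, was the most abundant type II member and did not follow the other type II genes. It was 6.11 and 7.84 CPM in general and 6.96 and 8.28 CPM in HHH of batch 1, and 10.6, 10.2 and 9.88 CPM in general and 11.1, 10.5 and 9.54 CPM in HHH of batch 2. The populations overlapped in both batches. The log2 fold change was 0.062 (SE 0.095, adjusted p = 0.756, 95% interval -0.14 to 0.27). Its sign turned under the replicate block (-0.027) and on the deposited log2 values (-0.074), without passing the test in either. On those deposited values the median of all genes was -0.12, and CDH11 lay above it.

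CDH12, a further cadherin of the brain, had 2 to 7 counts in the general libraries and 0 to 4 counts in HHH. These counts lie about the floor, so a difference was not detectable at this depth and no fold is given.

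**Figure D2:**
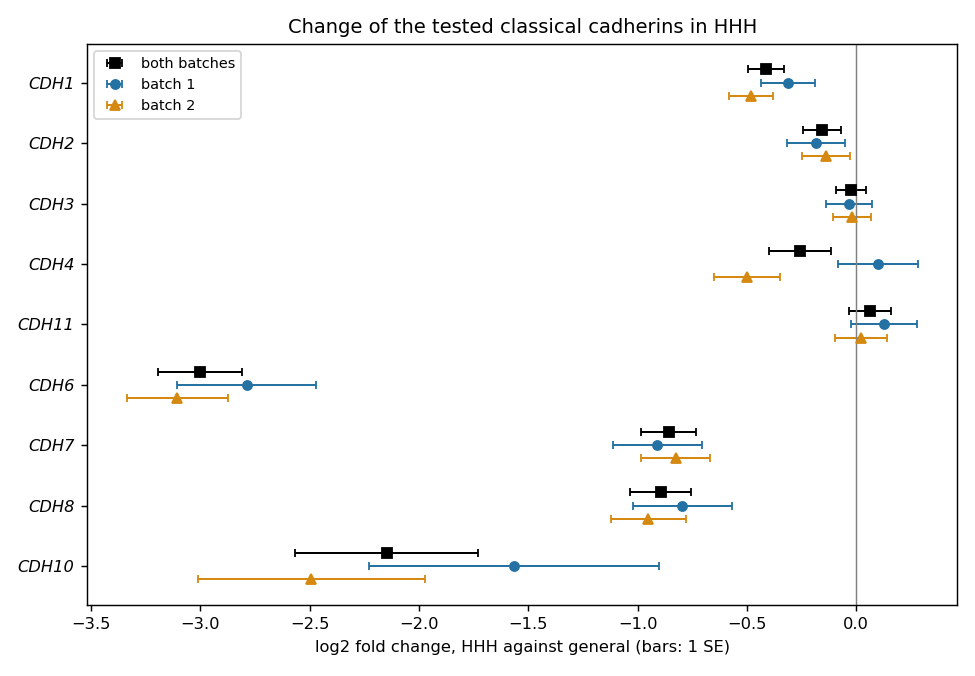
Log2 fold change of HHH against general for the 9 tested cadherins over both batches (squares), in batch 1 (circles) and in batch 2 (triangles), with bars of 1 SE. CDH6, CDH7, CDH8, CDH10 and CDH1 lie below 0 in both batches, CDH4 changes side, and CDH3 and CDH11 lie at 0.

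Taken by batch, 2 members (CDH6 and CDH7) passed the test of the batch 1 contrast, against 1.02% of all genes lower there, in a fit that takes the spread from the libraries of both batches, and 5 passed that of batch 2, against 5.65%. The difference between the batches was tested by the interaction of batch and population, in which 0 of the 9 members passed, against 0.777% of all genes. At an unadjusted p under 0.05 edgeR counted 1 member there, CDH4. The batches themselves differed in 4 members, all higher in batch 2 over both populations, where 47.9% of all genes differed in 1 direction or the other. The log2 differences were 0.98 in CDH6 (SE 0.20, adjusted p = 9.81e-04), 0.88 in CDH8 (SE 0.15, adjusted p = 2.37e-04), 0.75 in CDH2 (SE 0.090, adjusted p = 1.79e-05) and 0.50 in CDH11 (SE 0.099, adjusted p = 9.23e-04). CDH1 and CDH3 had differences of 0.0028 and 0.044. What a batch stands for is not given in the labels.

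Levels of different cadherins were compared per kilobase of exon. In this measure CDH1 stood at 45.0 ± 7.57 CPM per kb (SD, n = 10), CDH3 at 23.8 ± 1.23 and CDH2 at 6.94 ± 1.87. The ranges of these 3 over the libraries overlapped with no other member. CDH4 followed at 0.809 ± 0.147 CPM per kb, CDH11 at 0.686 ± 0.128, CDH8 at 0.350 ± 0.163, CDH6 at 0.297 ± 0.284, CDH7 at 0.126 ± 0.0407, CDH10 at 0.0780 ± 0.0608 and CDH12 at 0.00947 ± 0.00698 CPM per kb. From CDH4 down each range overlapped with that of the next member. CDH6, whose populations differ most, ran from 0.0293 to 0.763 CPM per kb and overlapped with CDH4, CDH11, CDH8, CDH7 and CDH10, so the order below rank 3 is one of means over both populations. The 3 most abundant, all of type I, kept ranks 1 to 3 in each population and batch. CDH6 was rank 6 in general of both batches and rank 8 in HHH of both. CDH11 passed CDH4 only in HHH of batch 2, among these 4 sets. With the gene lengths implied by the deposited log2 RPKM values, 7 of the 10 kept their rank, and CDH6, CDH7 and CDH8 changed places.

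**Figure D3:**
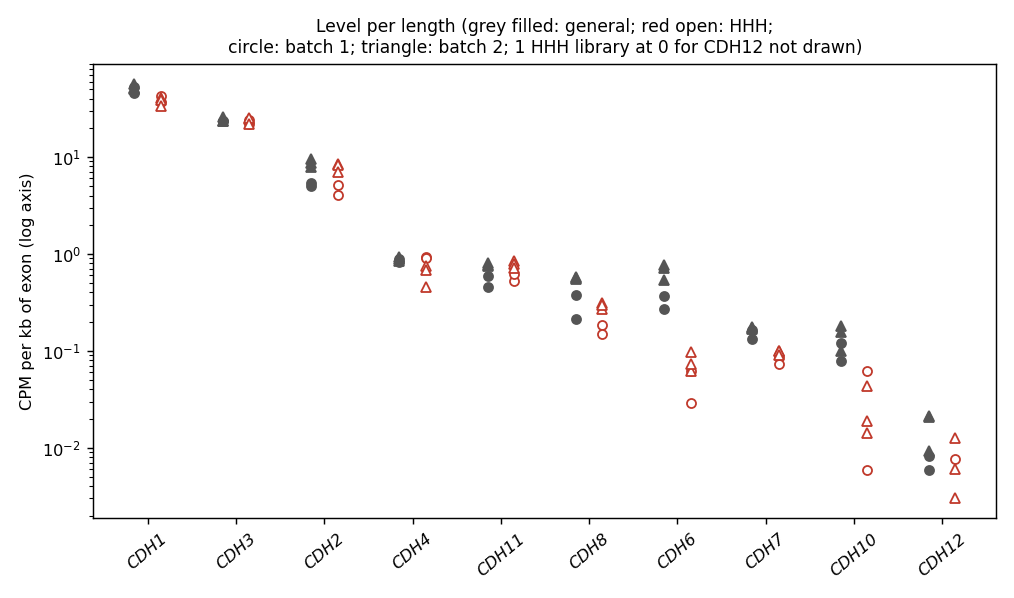
CPM per kb of exon (log axis) of the 10 cadherins in the order of their mean, general in grey filled and HHH in red open symbols, circles for batch 1 and triangles for batch 2. CDH1, CDH3 and CDH2 lie apart above the rest, and CDH6 shows the widest split between populations.

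Among the members' summed level per length, CDH1 made up 58.8 to 63.0% in the general libraries and 52.2 to 58.0% in HHH. The ratio of CDH1 to CDH3 was 2.26 and 1.94 in general and 1.66 and 1.79 in HHH of batch 1, and 2.13, 2.19 and 2.20 in general and 1.64, 1.54 and 1.56 in HHH of batch 2. All HHH libraries thus had less CDH1 for their CDH3 than any general library. The ratio of CDH1 to CDH2 was 5.85 to 9.79 in general and 4.69 to 9.10 in HHH, and here batch set the larger part of the range. Type II members held 1.65 and 1.8% of the sum in general and 1.30 and 1.31% in HHH of batch 1, and 2.54 to 2.81% in general and 1.72 to 1.96% in HHH of batch 2. These shares restate the differences of the single genes and were not tested.

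**Figure D4:**
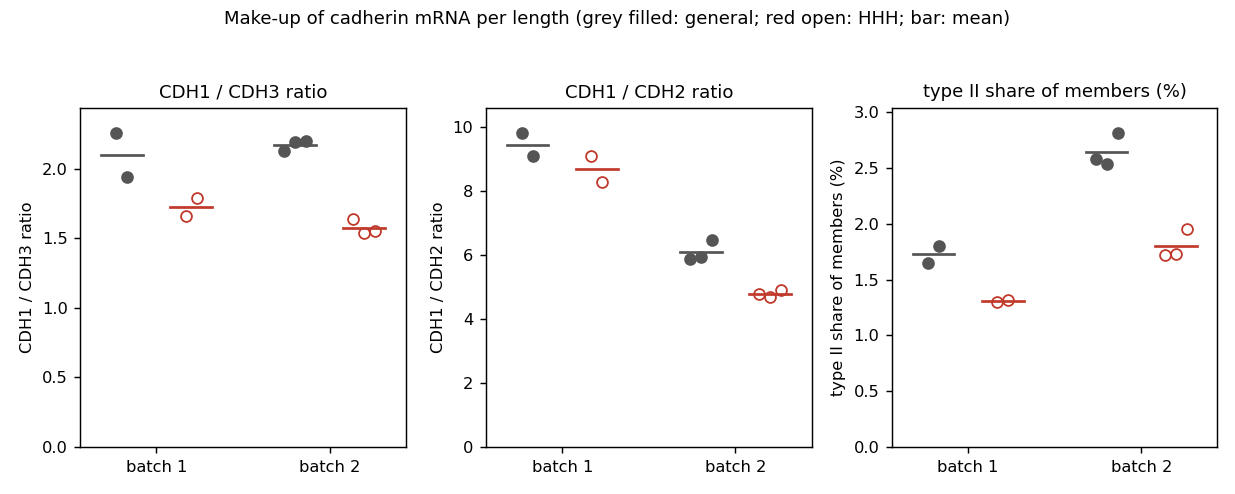
Ratio of CDH1 to CDH3, ratio of CDH1 to CDH2, and percent of the members' summed level per length held by type II members, for each library by batch, with bars at the means and axes from 0. HHH lies below general within each batch in the panels for CDH1 to CDH3 and type II, and in the panel for CDH1 to CDH2 the batches differ by more than the populations.

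Position on the chromosomes was not used to choose the members. Of the 10, 3 (CDH6, CDH10 and CDH12) lie on chromosome 5 in a stretch of 11.9 Mb that also holds CDH9 and CDH18, 5 classical cadherins among 6 protein-coding genes matched to the count table. In order along the chromosome the log2 fold changes were -0.79 for CDH18 (SE 0.28, adjusted p = 0.122), -2.15 for CDH10, -3.12 for CDH9 (SE 0.28, adjusted p = 1.10e-05) and -3.00 for CDH6, with CDH12 and the meiotic gene PRDM9 too low to test. DROSHA, the microRNA processing enzyme next to CDH6 outside the stretch, had -0.0018 (SE 0.079, adjusted p = 0.994). All 4 tested cadherins there had negative values, and 3 passed. On chromosome 16, CDH8 and the next protein-coding gene toward CDH1, CDH11, stood apart in that CDH8 passed the test and CDH11 did not, and of 64 other tested genes between CDH8 and CDH1, 1 was lower and 0 were higher. On chromosome 18, CDH7 lies in a stretch of 5.27 Mb with CDH20 (-0.52, SE 0.30, adjusted p = 0.334) and CDH19, which was too low to test. Of 13 other tested genes there 2 were lower, RNF152 (-0.76, SE 0.15, adjusted p = 0.00703) and TNFRSF11A (-0.68, SE 0.086, adjusted p = 2.51e-04), and 0 were higher, while DSEL, next to CDH19 outside the stretch, was higher (0.51, SE 0.093, adjusted p = 0.00426). The gene that was lower on chromosome 16 was TRADD (-1.54, adjusted p = 0.00614). Over all tested genes 3.89% were lower and 1.94% higher. PRDM9, DROSHA, RNF152, TNFRSF11A, DSEL and TRADD were named for their position after the values had been seen.

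Of the 10 members 6 had an entry among RefSeq promoter sequences (GRCh38.p14), and those of CDH7, CDH8 and CDH10 are shown because these 3 were all lower in HHH. CDH1, CDH3, CDH6 and CDH11 had none. Each is the 250 bases before the furthest upstream start site among the gene's entries in that table, 5′ to 3′ on the gene's strand, with CpG dinucleotides in capitals. CDH7 is at chr18:65750002-65750251 (plus strand), CDH8 at chr16:62036439-62036688 (minus strand) and CDH10 at chr5:24644979-24645228 (minus strand). For CDH7 and CDH10 that site is the gene start of GENCODE, and for CDH8 it lies 597 bases inside the GENCODE gene.
CDH7: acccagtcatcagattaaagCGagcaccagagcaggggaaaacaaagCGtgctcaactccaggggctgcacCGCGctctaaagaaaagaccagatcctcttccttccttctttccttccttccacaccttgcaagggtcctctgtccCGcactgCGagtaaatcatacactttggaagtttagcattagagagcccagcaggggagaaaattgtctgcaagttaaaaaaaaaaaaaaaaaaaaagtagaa
CDH8: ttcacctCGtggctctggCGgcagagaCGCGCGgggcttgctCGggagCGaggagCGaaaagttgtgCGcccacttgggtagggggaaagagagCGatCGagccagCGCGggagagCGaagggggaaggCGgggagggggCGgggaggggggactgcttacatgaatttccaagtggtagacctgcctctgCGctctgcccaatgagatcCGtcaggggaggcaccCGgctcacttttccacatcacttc
CDH10: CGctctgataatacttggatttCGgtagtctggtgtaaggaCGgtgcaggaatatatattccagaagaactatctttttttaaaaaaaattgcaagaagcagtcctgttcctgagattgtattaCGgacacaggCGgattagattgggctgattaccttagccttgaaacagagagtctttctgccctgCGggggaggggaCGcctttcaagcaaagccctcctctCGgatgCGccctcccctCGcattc
The CDH8 window has 19 CpG and 64.0% G and C, while CDH7 has 6 (45.6%) and CDH10 has 10 (47.6%), against a median of 10 over 27303 promoters, of which 65.9% hold fewer than 19. The E-box CACCTG, a sequence that SNAI and ZEB repressors can bind, was searched on both strands (CAGGTG on the other) together with the homeodomain core TAATTA and the octamer ATTTGCAT. None of the 3 motifs was in these 3 windows. Over all promoters of that length 17.5% hold the E-box, 4.52% the homeodomain core and 1.67% the octamer, and among the 6 members with an entry 1, CDH4, holds an E-box, in a window before a start site 247160 bases inside its GENCODE gene.

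The classical cadherins outside the 10 were CDH5, CDH9, CDH15, CDH18, CDH19, CDH20, CDH22 and CDH24, of which 6 could be tested. CDH9, a type II cadherin of the nervous system, was lower and 0 were higher, against 3.89% and 1.94% of all genes for this list and those below. It had 1.44 and 1.14 CPM in general and 0.0214 and 0.297 CPM in HHH of batch 1, and 4.21, 3.05 and 4.38 CPM in general and 0.309, 0.415 and 0.583 CPM in HHH of batch 2, so that the populations were apart. CDH24, the most abundant of the 8, had -0.13 (SE 0.11, adjusted p = 0.536) and CDH15, of muscle, -0.47 (SE 0.25, adjusted p = 0.317).

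The catenins and their p120 relatives carry the cadherin tail to actin and steady it at the membrane. Of these 9 genes 2 were lower and 0 higher. CTNNA2, the alpha-catenin of neural tissue, fell by 0.59 on the log2 scale (SE 0.11, adjusted p = 0.00527), with 17.6, 17.9 and 17.7 CPM in general and 10.4, 10.5 and 9.79 CPM in HHH of batch 2. In batch 1 its libraries overlapped, at 9.51 and 7.69 against 6.43 and 7.91 CPM, and its adjusted p was 0.604 with batch 1 fitted alone and 0.415 without the batch term. CTNND2, the delta-catenin of neural tissue, had -0.40 (SE 0.11, adjusted p = 0.0464), and it passed in 3 of 10 fits that left out 1 library each. By within-batch contrast it had -0.091 in batch 1 (adjusted p = 0.781) and -0.59 in batch 2 (adjusted p = 0.00431). Scaled by library size only, CTNND2 had an adjusted p of 0.0873, and without the batch term 0.332. The widely expressed catenins were more abundant and did not pass, with 0.037 for beta-catenin (CTNNB1, SE 0.085, mean 959 CPM), -0.071 for CTNNA1 (SE 0.072, mean 413 CPM) and -0.060 for p120 (CTNND1, SE 0.079, mean 185 CPM).

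Among 11 tested partners at adherens junctions 2 were lower and 0 higher. NECTIN3, an immunoglobulin-like adhesion receptor, had -0.30 (log2, SE 0.073, adjusted p = 0.0230), and the nectin-binding scaffold AFDN had -0.35 (SE 0.092, adjusted p = 0.0358). AFDN passed in 3 and NECTIN3 in 6 of 10 fits that left out 1 library. NECTIN3 had an adjusted p of 0.0715 with the replicate block, 0.467 without the batch term and 0.0784 on the deposited log2 values. Neither passed in a within-batch contrast, with adjusted p of 0.0682 and 0.0948 for NECTIN3 in batches 1 and 2, and 0.247 and 0.0623 for AFDN. Scaled by library size only, AFDN had an adjusted p of 0.0773, and without the batch term 0.581. Vinculin (VCL), the most abundant partner, had 0.15 (SE 0.069, adjusted p = 0.242). Of 9 genes for the cleavage or turnover of cadherins 0 passed in either direction, the sheddase ADAM10 among them at -0.070 (SE 0.072, adjusted p = 0.616). At an unadjusted p under 0.05 edgeR counted 0 of them, and DESeq2 and limma with voom called 0.

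Of 6 tested repressors of CDH1 transcription, ZEB2 was lower and 0 were higher. No gene of the lists of other classical cadherins, catenins, junction partners and repressors was higher in edgeR at an unadjusted p under 0.05, and 1 junction partner was so in DESeq2 and in limma with voom. ZEB2 had 42 and 31 counts in general and 3 and 6 counts in HHH of batch 1, and 34, 33 and 52 counts in general and 8, 21 and 10 counts in HHH of batch 2. The groups did not overlap, and the log2 fold change was -1.86 (SE 0.31, adjusted p = 0.00209). Like CDH10, ZEB2 was kept for testing through its general libraries, so its call is not independent of the filter on low counts. CDH1, which ZEB2 is known to repress, was lower in HHH as well, and a link between them was not tested. TCF3 and TCF4, far more abundant, had -0.12 (SE 0.099, adjusted p = 0.520) and 0.037 (SE 0.072, adjusted p = 0.811), and SNAI1 had -0.20 (SE 0.14, adjusted p = 0.418).

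**Figure D5:**
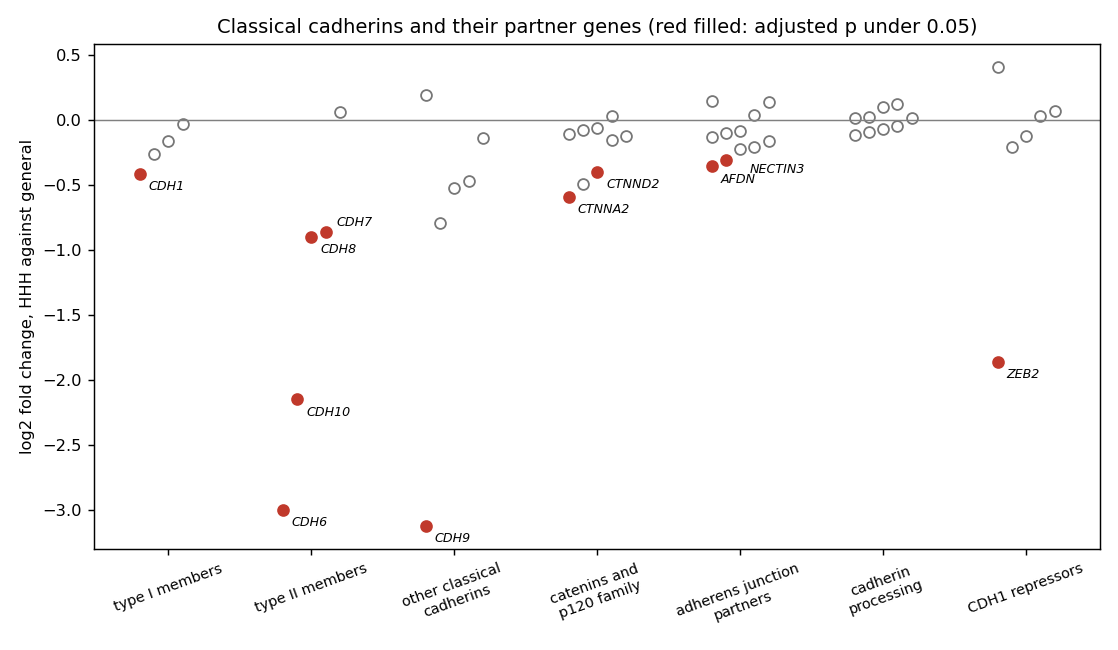
Log2 fold change of HHH against general for each tested gene of the type I members, the type II members and 5 lists of related genes, with genes past an adjusted p of 0.05 in red and named. All 11 named genes lie below 0, and the catenin, junction and processing lists lie closer to 0 than the 4 named type II members.

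Markers of other cell types moved with the type II cadherins in part. Of 8 neural progenitor genes 6 were tested and 3 were lower, DLK1 (-2.77), ZIC1 (-2.46) and SOX1 (-1.39), against 3.89% of all genes. PAX6 (-0.15, adjusted p = 0.665), NES and FABP7 did not pass, and 25.4% of the exonic bases of PAX6 are shared with ELP4. NES had 0.22 in the batch 1 contrast (adjusted p = 0.517) and -0.53 in that of batch 2 (adjusted p = 0.0239). In the batch 1 contrast DLK1 (-1.43), ZIC1 (-1.98) and SOX1 (-0.51) did not pass (adjusted p = 0.11, 0.102 and 0.675). In batch 2 all 3 passed, at -3.62, -2.63 and -1.93. The summed level of the 8 was 192 to 232 CPM in general and 244 to 252 CPM in HHH of batch 1, and 225 to 270 CPM in general and 135 to 194 CPM in HHH of batch 2, and most of it was NES. Of 8 neural crest genes 6 were tested, and SOX10 was lower and FOXD3 higher, against 3.89% and 1.94% of all genes. The summed level of these 8 was 67.0 to 70.5 CPM in general and 80.4 to 86.5 CPM in HHH of batch 1. In batch 2 it was 72.5 to 83.0 CPM in general and 86.0 to 91.3 CPM in HHH. The sum in HHH thus lay above that in general within each batch, unlike the type II cadherins that were lower. SOX10 had -0.27 in batch 1 (adjusted p = 0.638) and -1.18 in batch 2 (adjusted p = 0.00210). FOXD3 had 0.83 in batch 1 (adjusted p = 0.00153) and 0.17 in batch 2 (adjusted p = 0.282), and 24.1% of its exonic bases are shared with an antisense gene. None of these neural progenitor and neural crest genes differed between the batches by the interaction test. COL1A1 was lower among 3 tested mesoderm and mesenchyme genes (summed 130 to 182 CPM in general, 134 to 167 CPM in HHH), with -0.33 in batch 1 (adjusted p = 0.277) and -1.34 in batch 2 (adjusted p = 1.17e-05), which differed by the interaction test (adjusted p = 0.0315). Lower too were TEK and VWF among 5 endothelial genes (18.6 to 47.3 and 14.4 to 35.6 CPM), while 0 of 2 tested endoderm genes passed (1.72 to 3.25 and 1.64 to 4.63 CPM). SOX17, GATA4 and GATA6 had 0 to 3 counts and EMX2 0 to 5 in any library. The 6 pluripotent cell markers summed to 3763 to 5111 CPM in general and 3641 to 4779 CPM in HHH, with NANOG higher and SOX2 lower in HHH. The part of these cells in the cadherin differences was not tested.

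By profile over the 10 libraries, centred within each batch on log2(CPM + 0.5), the genes nearest to CDH1 among 15661 compared were DDR1, SERPINF1, GALNT12, ALPL and EDA, at root mean square distances of 0.0387 to 0.0591 where the median gene lay at 0.277. Nearest to CDH11 were MTR, INO80, HNRNPD, PARP1 and CTNNBL1, at 0.0396 to 0.0487 against a median of 0.182. A gene that hardly varies lies near every other such gene, and CDH11 itself was 0.113 from a flat profile.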

How the data were processed

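Bulk RNA sequencing of 10 libraries was used, from total RNA taken with Qiagen kits and TruSeq RNA libraries per the labels. The submitters' processing notes name CASAVA 1.8.2, R 3.2.2, limma 3.26.9 and the build GRCh37. The aligner, the counting tool, its strand setting and the annotation are not given in the sources used here. The authors deposited whole counts per Ensembl gene, without normalization, and a table of log2 values (entered as a score), which per its name were scaled by TMM and converted to RPKM by the authors. The log2 values served only for alternatives. The study's text gives the line of its transcriptome analysis as WA09, while the labels say HES9, and the 2 names were not reconciled. The design text of the series mentions protein kinase C inhibitors, which no label of these libraries carries.

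Symbols, positions and exonic lengths came from GENCODE 44 (GRCh38), in which 88.5% of the 55841 identifiers were found. Positions are 1-based in that build and not in the one the notes name. PECAM1, of the endothelial list, is not analysed here. Genes were kept by filterByExpr of edgeR 4.0.16 in R 4.3.3 with a minimum count of 10, leaving 23552, and scaled by TMM (factors 0.832 to 1.18). Libraries held 47242595 to 78503395 counts, and 3 counts stood for 0.0459 to 0.0686 CPM, a floor that covers counting error only. Populations were compared by the two-sided quasi-likelihood F test with batch as a term and Benjamini-Hochberg adjustment over all tested genes, within-batch contrasts and the interaction in a fit with a group per batch and population. The SE is the log2 fold change divided by the square root of F, and the common biological coefficient of variation was 0.128. Alternatives used DESeq2 1.42.0 and limma 3.58.1. The test was tried on simulated counts with known changes. Libraries of the same population and batch differed by 6.35 to 52.9 times the chi-square that counting noise gives, so none was taken as a copy.

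Within the batches 4 pairs of libraries, general and HHH, carry the same replicate number. Their deviations from the mean of the libraries alike in population and batch, on log2(CPM + 0.5), correlated at 0.164 in batch 1, where 2 against 2 libraries fix the size, and at 0.262, 0.150 and 0.0883 in batch 2, where 1 pair missed the criterion of 0.1. On edgeR's log2 CPM, tried after that result was known, they were 0.113, 0.239, 0.143 and 0.113. Since the criterion was met only on the scale tried second, the numbers were not taken to pair the libraries, and the replicate block is an alternative. In that block general batch 1 replicate 1 and HHH batch 1 replicate 3 stand alone, so its estimate of the population difference rests on the 4 pairs.

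The 10 members and all gene lists were chosen with earlier results of these data known. Named were all members, of each related list the genes past the threshold and otherwise up to 4 with the highest mean CPM, and the 5 nearest profiles of the most abundant type I and type II member.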

Additional observations from a re-analysis of the deposited data

Results flagged for a closer look

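Among 16 genes (the 10 members and the 6 related genes that passed the test) the 5 libraries of each population were searched for 1 library set apart from the others by Dixon's ratio. In groups of like libraries chance flags about 1 of 20. These 5 libraries span both batches, so that rate does not hold for genes that differ by batch, such as CDH2, CDH6, CDH8 and CDH11. A library set apart is harder to flag in them. Such a library was found in 2 of 32 groups. General batch 2 replicate 2 was the highest general library in CDH3, at 163 CPM with the next at 152 CPM. General batch 1 replicate 2 was the lowest general library in CDH7, at 1.91 CPM with the next at 2.40 CPM, and it still lay above all HHH libraries. Without it CDH7 kept its direction and its call.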

How the results depend on the processing

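The number of members lower in HHH was 5 whichever library was left out, 2 without the batch term, 1 in batch 1 alone and 6 in batch 2 alone, where 0.611%, 0.282% and 8.05% of all genes were lower in these last 3, against 3.89% in the fit reported. Members higher in HHH numbered 0, and members past the interaction test 0, under all alternatives run. Among the related genes, under the same shares, 6 were lower in the fit reported, 2 without the batch term, 0 in batch 1 alone and 13 in batch 2 alone (where 1 was higher). When a fold over 1.5 was also asked 3 were lower, against 2.34% of all genes. When 1 library was left out 3 to 9 were lower (3 without HHH batch 2 replicate 2), against 2.44 to 5.78% of all genes. In the order of levels per length 7 of 10 members kept their place with the implied lengths. The sign turned in CDH3 without HHH batch 2 replicate 3 (0.0063, where leaving out 1 library gave -0.050 to 0.0063), in CDH4 in batch 1 alone (0.093), and in CDH11 with the replicate block (-0.027) and on the deposited log2 values (-0.074). The cause of these changes was not tested. A single batch and the replicate block rest on fewer libraries. The replicate block left 5 members lower, with CDH6 at -3.20 and CDH10 at -2.62, and among the members and the 6 related genes that passed it took the call from NECTIN3 alone. In batch 2 every library correlated best with its own number on log2(CPM + 0.5), a hint from the data and not from the design. On the deposited log2 values the median of all genes was -0.12, and differences there are relative to it, so that CDH11 at -0.074 lay above the median. CDH10 and ZEB2 had no value with the filter of at least 1 CPM in at least 5 libraries. Depth limits CDH10 and CDH12, whose counts in HHH were 10 or fewer.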
